A study of Mus musculus with 2 samples.

Results

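The CXC chemokine transcripts described here were the 10 genes Cxcl1, Cxcl2, Cxcl3, Cxcl5, Cxcl9, Cxcl10, Cxcl12, Cxcl13, Cxcl14 and Cxcl16. They were chosen by gene symbol from the 33696 genes listed in each library. Single-cell RNA sequencing was used to ask how cells at a digit wound differed after treatment with FGF8, a fibroblast growth factor. Neonatal ICR mice had the middle phalanx (P2) of hindlimb digits 2 and 4 amputated at postnatal day 3 (PN3), and a bead carrying either FGF8 at 500 ng/µl or the vehicle protein BSA (0.1%) was implanted at PN7. Tissue distal to the P2 stump was collected 24 h later, at PN8, after the surrounding epithelium had been removed. Each of the 2 libraries (BSA control and FGF8) was a single pool of 20 digits from 5 mice of both sexes, and all treated digits entered the pool whether or not they would have regenerated.

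Chemokines are small secreted proteins that guide migrating cells by binding G protein-coupled receptors. Cxcl1, Cxcl2, Cxcl3 and Cxcl5 share a glutamate-leucine-arginine (ELR) motif and attract neutrophils through Cxcr2, and their genes are classical targets of NF-kB. Cxcl9 and Cxcl10 are induced by interferons and act on Cxcr3 of T and NK cells. Cxcl12 is made by stromal cells and signals through Cxcr4, while the atypical receptor Ackr3 removes it. Cxcl13 attracts B cells through Cxcr5, Cxcl14 is produced steadily by skin epithelium and fibroblasts, and Cxcl16 is a membrane-bound ligand of Cxcr6 that proteases such as Adam10 can shed.

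The ELR genes lie together on mouse chromosome 5 (GRCm39, plus strand): Cxcl5 at chr5:90907186-90909483, Cxcl3 at chr5:90933962-90937459, Cxcl1 at chr5:91039094-91040974 and Cxcl2 at chr5:91051730-91053797. Cxcl9 (chr5:92469206-92475945) and Cxcl10 (chr5:92494497-92496748) are neighbours on the minus strand of the same chromosome, and Cxcl13 is at chr5:96104810-96108927. Cxcl12 (chr6:117144945-117158328), Cxcl14 (chr13:56436352-56444603, minus strand) and Cxcl16 (chr11:70344517-70352620, minus strand) are on other chromosomes. Promoter sequences from RefSeq (GRCm38.p6, 32851 promoters from 250 bases before to 50 bases after each start) were matched for 8 of the 10 genes. They are shown because the 3 ELR genes among those 8 shared a run of 11 letters, GGGAATTTCCC, the longest one common to them that holds a match of the NF-kB motif. On either strand, this run occurred in 14 (0.0426%) of all promoters, and it began 71, 97 and 73 bases before the start in Cxcl1, Cxcl2 and Cxcl3. The NF-kB motif in its degenerate form was found in 4 of the 8 promoters (the same genes and Cxcl10) and in 4.51% of all promoters. The AP-1 motif TGANTCA was in Cxcl9 and Cxcl10 (7.81% of all promoters), and the interferon-stimulated response element (ISRE) was in Cxcl10 and Cxcl14 (3.44%). These are matches of letters on either strand, not measured binding sites. Below, bases 120 to 51 before the start are given with their GRCm38.p6 positions, 5′ to 3′ on the strand of the gene, with the shared run in capitals for Cxcl1, Cxcl2 and Cxcl3, and the NF-kB and AP-1 matches in capitals for Cxcl10.
Cxcl1 (chr5:90891125-90891194, plus strand): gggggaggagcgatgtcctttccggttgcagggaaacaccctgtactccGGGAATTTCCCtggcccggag
Cxcl2 (chr5:90903779-90903848, plus strand): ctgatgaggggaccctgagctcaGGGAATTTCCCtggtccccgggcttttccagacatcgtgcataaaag
Cxcl3 (chr5:90785981-90786050, plus strand): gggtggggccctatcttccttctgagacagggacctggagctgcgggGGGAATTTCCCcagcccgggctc
Cxcl10 (chr5:92348940-92349009, minus strand): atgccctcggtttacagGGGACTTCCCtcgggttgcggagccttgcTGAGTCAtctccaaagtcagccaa

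The BSA library held 3703 cell barcodes with 67739460 unique molecular identifiers (UMIs, each standing for 1 captured transcript) and the FGF8 library 7249 barcodes with 124889213 UMIs. Keeping barcodes with over 200 and under 7500 genes and under 15% mitochondrial UMIs left 3252 BSA cells and 6715 FGF8 cells, with median depths of 15377 and 12251 UMIs. The libraries differed in the sex of their cells. Of those that could be called by X- and Y-linked transcripts, 79.3% were female in BSA and 24.6% in FGF8. The 2 libraries shared 6 barcode sequences, 4 of them among kept cells of both. Levels are given as UMIs of the gene per 1000000 UMIs summed over the cells of a type (CPM), and differences as the log2 ratio of CPM, FGF8 over BSA, with a 95% interval in parentheses. With 1 library per group there was no replicate and no test: the intervals, here and below, reflect counting error only, and mice, digits and library preparations may vary by more.

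The largest cluster was named fibroblast-like (1515 BSA and 2901 FGF8 cells, median depths 21713 and 20568 UMIs). All 9 fibroblast markers were detected in it in both libraries and summed to 44266 CPM in BSA and 23968 CPM in FGF8, with Col1a1 most abundant in BSA and Col3a1 in FGF8. Markers of other chemokine-producing cells were low there. The 8 neutrophil markers summed to 8.81 CPM in BSA and 33.1 CPM in FGF8 (Ly6g at 0 in both), and the 8 macrophage markers to 13.8 CPM in BSA and 16.6 CPM in FGF8. In neutrophil-like cells the neutrophil markers summed to 36705 CPM in BSA and 38719 CPM in FGF8. The other cells were named from their markers as neutrophil-like (154 BSA and 517 FGF8 cells), macrophage-like (103 BSA and 200 FGF8), monocyte or dendritic-like in 2 clusters led by Ms4a4c (220 BSA and 432 FGF8) and by H2-Ab1 and Flt3 (47 BSA and 66 FGF8), pericyte or smooth muscle-like (182 BSA and 282 FGF8), Schwann-like (127 BSA and 236 FGF8), erythroid-like (78 BSA and 607 FGF8), keratinocyte-like (124 BSA and 134 FGF8), chondrocyte-like (66 BSA and 142 FGF8), blood endothelial-like (68 BSA and 130 FGF8), lymphatic endothelial-like (49 BSA and 12 FGF8), T or NK-like (49 BSA and 90 FGF8) and mast-like (40 BSA and 62 FGF8). Fibroblast-like cells of low depth formed a further class (324 BSA and 654 FGF8 cells, median 2090 and 2001 UMIs), and 3 small clusters stayed unnamed. Chemokine genes were left out when the clusters were drawn. Keratinocyte-like cells had a median depth of 1708 and 9582 UMIs in BSA and FGF8, a gap that bears on any share of cells in that class.

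In fibroblast-like cells, all 4 ELR transcripts and Cxcl14 were more than 2-fold higher in FGF8 than in BSA, Cxcl9 was more than 2-fold lower, and Cxcl10, Cxcl12 and Cxcl16 lay within 2-fold. Thus 5 of the 9 transcripts with at least 10 UMIs were past 2-fold higher and 1 was past 2-fold lower, beside 6.45% and 5.31% of all 19897 genes at that UMI minimum. Cxcl13 had no UMI in fibroblast-like cells of either library, and a count of 0 (a floor of 3 UMIs over the cells) allows up to 0.0867 CPM in BSA and 0.0441 CPM in FGF8. The median log2 ratio of the 9 was 1.41, beside -0.08 over all genes.

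**Figure D1:**
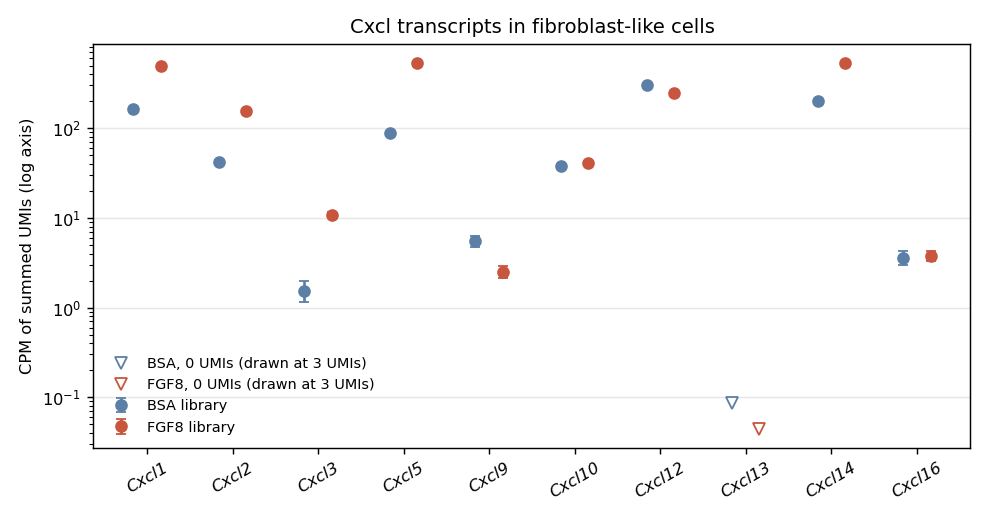
CPM of each Cxcl transcript in fibroblast-like cells (log axis) in the BSA library (blue) and the FGF8 library (red). Bars are 95% intervals for counting error only, and open triangles mark a gene with 0 UMIs, drawn at the level of 3 UMIs. Cxcl1, Cxcl2, Cxcl3, Cxcl5 and Cxcl14 lie higher in FGF8, Cxcl9 lower, and Cxcl13 has no UMI.

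Cxcl5, a Cxcr2 ligand of epithelial and stromal cells, had 3042 UMIs in BSA and 36109 UMIs in FGF8. These were 87.9 CPM in BSA and 530.3 CPM in FGF8, a 6.03-fold difference with a log2 ratio of 2.59 (2.54 to 2.65). The gene was seen in 19.8% (17.8 to 21.9) of BSA cells and 46.9% (45.1 to 48.7) of FGF8 cells, so both the share of cells and the level were higher in FGF8. Cxcl1, long known as a neutrophil attractant secreted by stimulated fibroblasts, had 5644 UMIs in BSA and 33401 UMIs in FGF8. Its level was 163 CPM in BSA and 491 CPM in FGF8 and its log2 ratio 1.59 (1.55 to 1.63), 3.01-fold. It was detected in 31.1% (28.8 to 33.5) of BSA cells and 59.9% (58.1 to 61.7) of FGF8 cells. Cxcl2, a second Cxcr2 ligand usually prominent in myeloid cells, had 1439 UMIs in BSA and 10656 UMIs in FGF8, which were 41.6 CPM in BSA and 157 CPM in FGF8. The log2 ratio was 1.91 (1.83 to 1.99), and 10.6% of BSA cells and 30.5% of FGF8 cells carried at least 1 UMI. The neutrophil markers given above were also higher in FGF8 fibroblast-like cells, and their part in the Cxcl2 value was not tested. In neutrophil-like cells those markers stood at 38719 CPM beside Cxcl2 at 4329 CPM in FGF8, against 33.1 CPM beside 157 CPM in fibroblast-like cells. Cxcl3, the close relative of Cxcl2, had 53 UMIs in BSA and 740 UMIs in FGF8, or 1.53 CPM in BSA and 10.9 CPM in FGF8, with a log2 ratio of 2.83 (2.42 to 3.26). Only 0.792% of BSA cells and 3.90% of FGF8 cells had a Cxcl3 UMI, and the single richest cell held 50.9% and 25.5% of the UMIs, so that the level in BSA rested largely on 1 cell. Without the richest cell of each library the log2 ratio of Cxcl3 was 3.43.

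UMIs of these genes were unevenly spread between cells. A small number of cells held 50% of the UMIs: 17 BSA cells and 95 FGF8 cells for Cxcl5, 42 BSA cells and 171 FGF8 cells for Cxcl1 and 21 BSA cells and 91 FGF8 cells for Cxcl2. For Cxcl12 the corresponding numbers were 141 BSA cells and 262 FGF8 cells. When each fibroblast-like cell was thinned to 2000 UMIs, the share of cells with a UMI in BSA and FGF8 was 11.6% and 27.9% for Cxcl1, 3.51% and 11.2% for Cxcl2 and 6.76% and 21.2% for Cxcl5. Erythroid-like cells, in which these genes are not known to be active, are given for comparison. At median depths of 18542 and 6797 UMIs they had a Cxcl1 UMI in 6.41% and 11.4% of cells and a Cxcl5 UMI in 1.28% and 10.2%. After thinning, their shares were 2.78% and 4.86% for Cxcl1, 2.78% and 2.33% for Cxcl2 and 1.39% and 2.75% for Cxcl5. In the BSA erythroid-like cells 1 cell held 82.4% of the Cxcl1 UMIs, 75.0% of Cxcl2 and 100% of Cxcl5, and neutrophil markers there summed to 326 CPM in BSA and 51.03 CPM in FGF8. The thinned shares in fibroblast-like cells were above those of erythroid-like cells with no overlap of the intervals for all 3 genes in FGF8 and for Cxcl1 in BSA. In BSA, with 72 thinned erythroid-like cells, the intervals overlapped for Cxcl2 (2.64 to 4.57% and 0.338 to 9.68%) and for Cxcl5. Cxcl3 after thinning was in 0.759% of fibroblast-like and 0.211% of erythroid-like cells of FGF8.

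The fibroblast-like cells fell into 6 subclusters, and the ELR transcripts were not evenly divided between them. Subcluster 0 (270 BSA and 1074 FGF8 cells), led by Prg4, the joint lubricant, together with mitotic genes such as Ube2c and Plk1, was 2.09-fold higher for Cxcl1 in FGF8 (336 CPM in BSA and 702 CPM in FGF8). It had the highest Cxcl1 and Cxcl2 levels of the 6 in both libraries. In this subcluster 56.3% of BSA cells and 86.3% of FGF8 cells had a Cxcl1 UMI. Subcluster 3 (235 BSA and 395 FGF8 cells; Lpl, Dlk1, Pi16) had the highest Cxcl5 level, 277 CPM in BSA and 966 CPM in FGF8, while subcluster 0 had 93.8 and 646 CPM. Subcluster 1 (493 BSA and 697 FGF8 cells; Chodl, Sema3a) was low in Cxcl1 (16.2 and 49.9 CPM) but held Cxcl5 at 56.5 and 336 CPM. Subcluster 2 (323 BSA and 456 FGF8 cells; Fmod, Comp) showed the reverse, with 204 and 366 CPM of Cxcl1 and 19.5 and 118 CPM of Cxcl5. Subcluster 4 (172 BSA and 231 FGF8 cells; Coch, Nrg1) was the lowest of these 5 for both, at 6.56 and 27.7 CPM of Cxcl1 and 5.18 and 31.4 CPM of Cxcl5. Subcluster 5 held 22 BSA and 48 FGF8 cells.

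The log2 ratio was above 0 for Cxcl1 in all 6 subclusters. In subclusters 0 to 4 it was 1.06, 1.62, 0.84, 1.35 and 2.08. For Cxcl5 the same 5 values were 2.78, 2.57, 2.60, 1.80 and 2.60, past 2-fold in each. Over the 6 subclusters, 22 of 43 pairs of a member and a subcluster were past 2-fold higher and 2 past 2-fold lower, beside 5.84% and 4.56% of all such pairs of a gene and a subcluster. The 2 that were lower were Cxcl9 in subcluster 1 (154 and 48 UMIs, log2 ratio -1.84, -2.34 to -1.36) and Cxcl3 in subcluster 2 (31 and 13 UMIs, log2 ratio -1.54, -2.60 to -0.56). Of the 31 BSA UMIs of Cxcl3, 27 lay in 1 cell, so that this value rested on that cell. Cxcl2 was 94.5 and 239 CPM in subcluster 0 (log2 ratio 1.34, 1.24 to 1.44) and 16.2 and 99.3 CPM in subcluster 3 (log2 ratio 2.61, 2.30 to 2.94). The mix of subclusters itself differed between the libraries: subcluster 0 was the largest in FGF8 and subcluster 1 the largest in BSA. With the subclusters weighted as in BSA, the log2 ratio over all fibroblast-like cells was 1.08 for Cxcl1, 1.29 for Cxcl2 and 2.31 for Cxcl5.

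**Figure D2:**
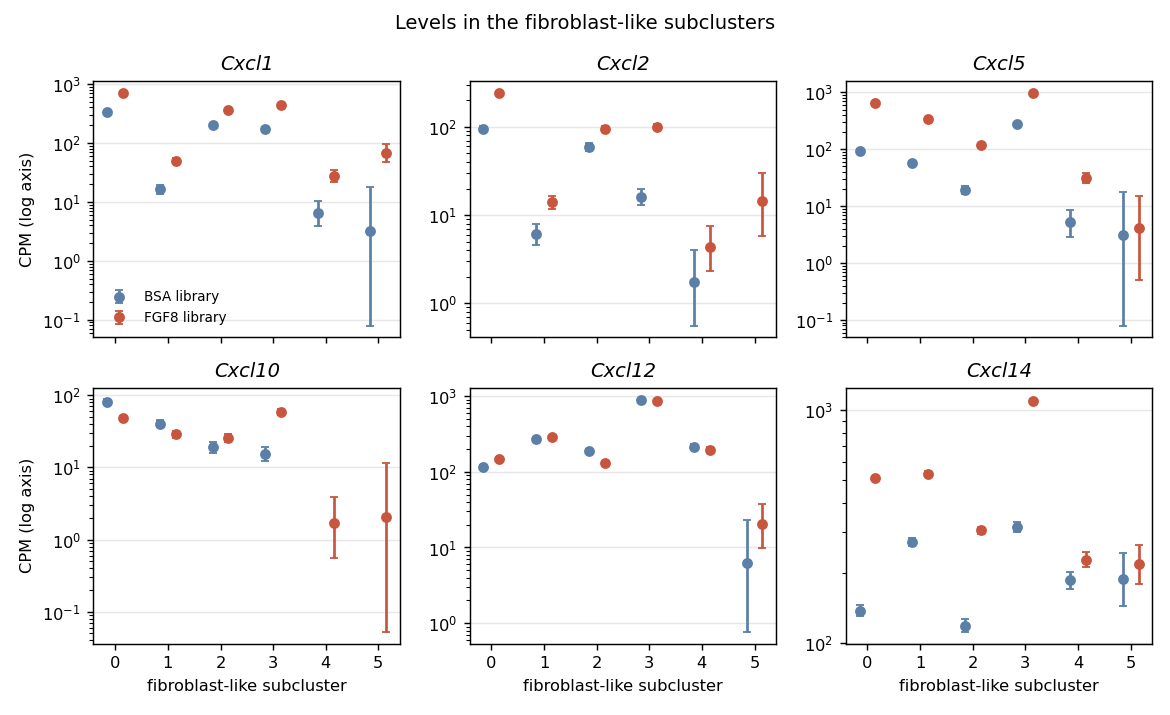
CPM (log axis) of 6 Cxcl transcripts in the 6 fibroblast-like subclusters, BSA in blue and FGF8 in red, with 95% intervals for counting error only; a point is missing where a library had 0 UMIs. Cxcl1 and Cxcl5 lie higher in FGF8 in subclusters 0 to 4, Cxcl14 does so mainly in subclusters 0 to 3, and the Cxcl12 points of the 2 libraries lie close together.

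Cxcl14, a chemokine of resting skin, had 6987 UMIs in BSA and 36613 UMIs in FGF8. Its level in fibroblast-like cells was 202 CPM in BSA and 538 CPM in FGF8, a log2 ratio of 1.41 (1.38 to 1.45). Unlike the ELR genes it was already widespread in BSA, being detected in 57.7% of BSA cells and 68.3% of FGF8 cells. The level was 314 and 1093 CPM in subcluster 3, 271 and 534 CPM in subcluster 1 and 138 and 509.6 CPM in subcluster 0. In subclusters 4 and 5 the 2 libraries were closer, with log2 ratios of 0.29 (0.13 to 0.46) and 0.21 (-0.26 to 0.69). Cxcl12, which signals to Cxcr4-bearing cells, had 10544 UMIs in BSA and 16888 UMIs in FGF8, or 305 CPM in BSA and 248 CPM in FGF8. Its log2 ratio over all fibroblast-like cells was -0.30 (-0.33 to -0.26), a 1.23-fold lower level in FGF8, and it was detected in 69.8% of BSA cells and 68.7% of FGF8 cells. Subcluster 3 had its highest level in both libraries (884 and 848 CPM). In subclusters 0 to 4 the log2 ratio ran from -0.50 (-0.61 to -0.39) in subcluster 2 to 0.33 (0.23 to 0.42) in subcluster 0, and it was 0.06 (-0.01 to 0.14) in subcluster 1. With the subclusters weighted as in BSA it was -0.04. Cxcl13, the B cell attractant, had 4 UMIs in the whole FGF8 library after filtering, in 1 keratinocyte-like and 1 pericyte or smooth muscle-like cell, and none in BSA.

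The interferon-type members did not follow the ELR genes. Cxcl10 had 1321 UMIs in BSA and 2806 UMIs in FGF8 in fibroblast-like cells, or 38.2 CPM in BSA and 41.2 CPM in FGF8, with a log2 ratio of 0.11 (0.02 to 0.21). It was detected in 8.18% (6.85 to 9.68) of BSA cells and 16.4% (15.1 to 17.8) of FGF8 cells, so that more of the FGF8 cells had a UMI while the summed level was similar. In BSA, 5 cells held 50% of the UMIs and the richest cell held 17.9%. The direction differed between subclusters: Cxcl10 was lower in FGF8 in subcluster 0 (81.9 and 48.8 CPM, log2 ratio -0.75, -0.87 to -0.62) and subcluster 1 (40.5 and 28.7 CPM, log2 ratio -0.50, -0.72 to -0.27) and higher in subcluster 3 (15.3 and 58.0 CPM, log2 ratio 1.92, 1.58 to 2.27). In subcluster 3 of FGF8, 1 cell held 39.7% of the UMIs. Cxcl9 was rare, with 190 UMIs in BSA and 170 UMIs in FGF8, 5.49 CPM in BSA and 2.50 CPM in FGF8 and a log2 ratio of -1.14 (-1.44 to -0.83). It was found in 2.11% of BSA cells and 1.31% of FGF8 cells, and 50% of its UMIs lay in 3 BSA cells and 2 FGF8 cells. Cxcl16, the membrane-bound member, was low in fibroblast-like cells at 3.58 CPM in BSA and 3.75 CPM in FGF8, with a log2 ratio of 0.06 (-0.25 to 0.39).

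Because the sexes were unequally represented, the fibroblast-like cells were also compared within female-called and male-called cells. There were 1082 BSA and 611 FGF8 female-called and 274 BSA and 1966 FGF8 male-called cells. Cxcl5 was 64.0 CPM in BSA and 493 CPM in FGF8 in female-called cells, a log2 ratio of 2.95 (2.87 to 3.03), and 205 CPM in BSA and 554 CPM in FGF8 in male-called cells, a log2 ratio of 1.43 (1.35 to 1.51). Cxcl14 was 166 and 579.8 CPM in female-called cells (log2 ratio 1.81, 1.75 to 1.86) and 367 and 506 CPM in male-called cells (log2 ratio 0.46, 0.40 to 0.52), so that its difference was within 2-fold in the male-called cells. For both genes the 2 sexes were close in FGF8 and further apart in BSA, where the male-called cells had the higher level. For Cxcl5 that BSA level rested on few cells: 1 male-called cell held 21.6% of the UMIs and 4 held 50%. The shares of BSA cells with a Cxcl5 UMI had overlapping intervals, 19.2% (16.9 to 21.7) of female-called and 23.0% (18.1 to 28.4) of male-called cells. Cxcl1 gave 1.91 (1.85 to 1.97) and 1.19 (1.12 to 1.27), and Cxcl2 gave 2.05 (1.94 to 2.16) and 1.87 (1.70 to 2.04). Cxcl3 gave 2.19 (1.63 to 2.76) from 38 and 100 UMIs and 3.15 (2.26 to 4.22) from 10 and 620 UMIs. In BSA 1 cell held 71.1% of the female-called and 1 held 100% of the male-called Cxcl3 UMIs, so both ratios rested on single BSA cells. In FGF8 1 male-called cell held 30.5%. Cxcl12 had nearly the same log2 ratio in both, -0.33 (-0.39 to -0.27) and -0.35 (-0.42 to -0.28). Cxcl9 was 0.09 (-0.33 to 0.51) in female-called cells, an interval that spans 0, and -3.34 (-3.94 to -2.75) in male-called cells. In the female-called cells 1 cell held 42.2% of the BSA and 1 held 75.9% of the FGF8 UMIs of Cxcl9, so the female-called value rested largely on them. The male-called Cxcl9 value came from 61 BSA and 42 FGF8 UMIs. In BSA only 10 male-called cells had a Cxcl9 UMI and 1 cell held 41.0% of the UMIs. The male-called value therefore rested in part on that cell. Cxcl10 had opposite signs, -0.44 (-0.61 to -0.27) and 0.31 (0.12 to 0.51). In BSA 1 cell held 24.9% of the female-called and 1 held 37.1% of the male-called UMIs, so both values rested in part on single cells. Each sex came from an unknown number of the 5 mice of a pool, so sex and mouse cannot be told apart.

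**Figure D3:**
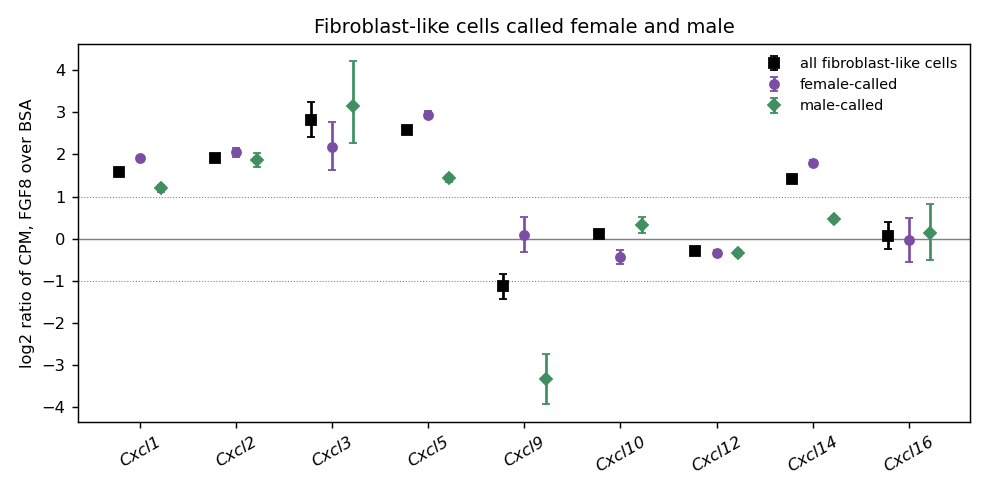
Log2 ratio of CPM, FGF8 over BSA, in all fibroblast-like cells (squares), female-called cells (circles) and male-called cells (diamonds), with 95% intervals for counting error only; dotted lines mark 2-fold. The ELR genes lie above 1 in both sexes, Cxcl14 does so in female-called cells, and Cxcl10 differs in sign between the sexes.

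Most UMIs of Cxcl1, Cxcl5, Cxcl12 and Cxcl14 came from fibroblast-like cells. They held 96.0% and 96.2% of the Cxcl5 UMIs of the BSA and FGF8 libraries, 85.5% and 92.3% of Cxcl14, 87.9% and 89.7% of Cxcl12 and 76.0% and 86.4% of Cxcl1, against 63.7% and 66.0% of all UMIs and 46.6% and 43.2% of the cells. Cxcl2 was divided, and below that share of all UMIs, with 39.6% and 54.2% in fibroblast-like cells and 37.7% and 30.2% in neutrophil-like cells. Cxcl16 was mainly myeloid, with 36.3% and 45.3% in the Ms4a4c monocyte or dendritic-like cluster and 32.0% and 28.5% in macrophage-like cells.

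**Figure D4:**
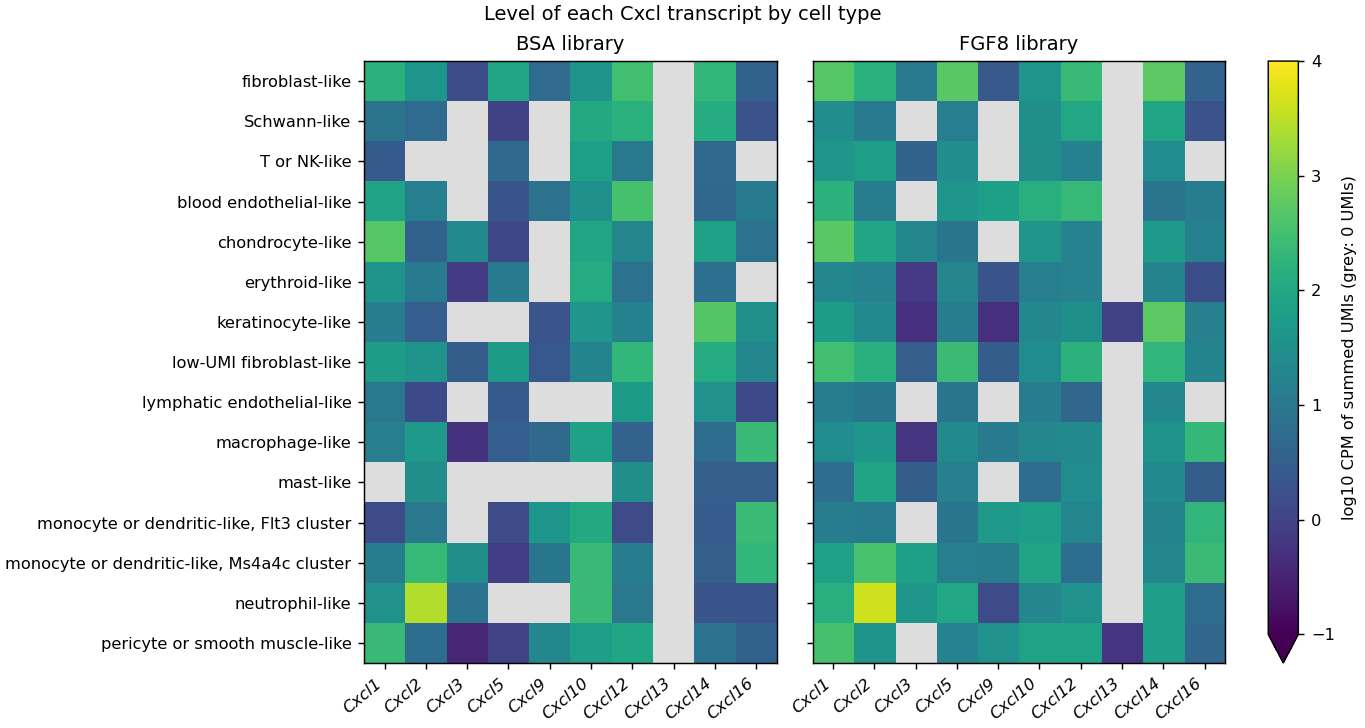
Log10 CPM of each Cxcl transcript (columns) in each named cell type (rows), BSA library on the left and FGF8 on the right; grey marks 0 UMIs. Neutrophil-like cells stand out for Cxcl2, keratinocyte-like and fibroblast-like cells for Cxcl14, fibroblast-like cells for Cxcl5, and macrophage-like and monocyte or dendritic-like cells for Cxcl16.

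The order of the named cell types by level differed between the genes. Cxcl2 was highest in neutrophil-like cells, 2688 CPM in BSA and 4329 CPM in FGF8, with a log2 ratio of 0.69 (0.60 to 0.77), and 44.8% of BSA cells and 62.7% of FGF8 cells had a UMI. The Ms4a4c monocyte or dendritic-like cluster was second at 220.1 and 362 CPM (log2 ratio 0.72, 0.58 to 0.86), and fibroblast-like cells, at 41.6 and 157 CPM, came after macrophage-like cells (48.8 and 45.1 CPM) in BSA and directly after the Ms4a4c cluster in FGF8. In BSA the intervals of macrophage-like and fibroblast-like cells overlapped, and 1 macrophage-like cell held 41.3% of the Cxcl2 UMIs. In FGF8 the fibroblast-like and low-UMI fibroblast-like levels of Cxcl2 had overlapping intervals. Cxcl3 was highest in the Ms4a4c cluster (29.97 and 68.6 CPM, log2 ratio 1.19, 0.82 to 1.58), but in BSA its interval overlapped that of chondrocyte-like cells and 1 cell held 56.2% of its UMIs. The Cxcl3 log2 ratio there was 0.71, within 2-fold, after thinning to 2000 UMIs and 2.17 without the richest cell of each library. Cxcl1 was highest in chondrocyte-like cells, 478 CPM in BSA and 525 CPM in FGF8 (log2 ratio 0.13, 0.01 to 0.26), where 1 cell held 50.4% of the BSA and 1 held 20.1% of the FGF8 UMIs. In FGF8 that share was larger than the gap to fibroblast-like cells (491 CPM), so the order of these 2 types rested on that cell. The direction between libraries turned in chondrocyte-like cells with the stricter cell filter (-0.15) and with cells weighted equally (-0.19). Pericyte or smooth muscle-like cells had 229.8 and 356 CPM of Cxcl1 (log2 ratio 0.63, 0.50 to 0.77), above fibroblast-like cells in BSA and below them in FGF8. In macrophage-like cells Cxcl1 was 13.8 and 26.7 CPM (log2 ratio 0.95, 0.31 to 1.64). Cxcl3 in chondrocyte-like cells was 24.3 and 19.4 CPM (log2 ratio -0.33, -0.92 to 0.28), with 97.5% of the BSA and 42.9% of the FGF8 UMIs in 1 cell, and without the richest cell of each library the direction turned (4.18). Cxcl5 was highest in fibroblast-like and then low-UMI fibroblast-like cells (54.0 and 259 CPM, log2 ratio 2.26, 1.95 to 2.60), and no other named type exceeded 96.3 CPM in FGF8. In BSA the next type after these 2 was erythroid-like, where all 16 Cxcl5 UMIs lay in 1 cell.

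Cxcl12 was highest in blood endothelial-like cells of BSA (355 and 225 CPM, log2 ratio -0.66, -0.86 to -0.45), followed by fibroblast-like cells (305 and 248 CPM), and in FGF8 the intervals of these 2 overlapped. In BSA 1 blood endothelial-like cell held 22.5% of the Cxcl12 UMIs, more than the gap to fibroblast-like cells, so this order rested on it. The difference between the libraries was -0.17 with cells weighted equally and -0.033 after thinning to 2000 UMIs. Fibroblast markers in blood endothelial-like cells summed to 2175 CPM in BSA and 1146 CPM in FGF8, and their part in the Cxcl12 values of both endothelial classes was not tested. Low-UMI fibroblast-like cells came next at 206 and 164 CPM (log2 ratio -0.33, -0.53 to -0.13). Schwann-like cells had 158 and 98.4 CPM of Cxcl12 (log2 ratio -0.68, -0.91 to -0.45) and pericyte or smooth muscle-like cells 86.8 and 80.3 CPM (log2 ratio -0.11, -0.36 to 0.14). Lymphatic endothelial-like cells had 41 and 1 UMIs of Cxcl12, in 49 BSA but only 12 FGF8 cells, beside fibroblast markers at 6011 CPM in BSA and 495 CPM in FGF8 there. Cxcl14 was highest in keratinocyte-like cells, 452 CPM in BSA and 540.2 CPM in FGF8 (log2 ratio 0.26, 0.10 to 0.42), and in FGF8 their interval overlapped that of fibroblast-like cells. Centred on the median of all genes, the keratinocyte-like log2 ratio was -0.0021. Below these, Cxcl14 was 119 and 194 CPM in low-UMI fibroblast-like (log2 ratio 0.71, 0.47 to 0.95), 122 and 92.9 CPM in Schwann-like (log2 ratio -0.40, -0.65 to -0.15) and 71.8 and 50.8 CPM in chondrocyte-like cells (log2 ratio -0.50, -0.85 to -0.15), so that its difference outside the main fibroblast-like class was within 2-fold in these. Fibroblast markers in chondrocyte-like cells summed to 8774 CPM in BSA and 4167 CPM in FGF8, and their part in the Cxcl14 value there was not tested. In Schwann-like cells 1 BSA cell held 55.0% of the Cxcl14 UMIs, and the direction turned in 5 of 9 alternatives, with values up to 0.90. The unnamed clusters led by Psors1c2 and Prr9 had 76.2 and 147 CPM and 99.3 and 43.0 CPM. In BSA 1 cell of the Psors1c2 cluster held 34.6% and 1 cell of the Prr9 cluster 47.9% of these Cxcl14 UMIs. Cxcl16 was highest in the Flt3 monocyte or dendritic-like cluster of BSA (257 and 199.8 CPM, log2 ratio -0.36, -0.67 to -0.06), in macrophage-like cells (230.2 and 212 CPM, log2 ratio -0.12, -0.29 to 0.06) and in the Ms4a4c cluster (202 and 251 CPM, log2 ratio 0.32, 0.16 to 0.47). In BSA the intervals of these neighbours overlapped, and in FGF8 the Ms4a4c cluster stood above the other 2. These 3 lay within 2-fold between libraries, and were above 31.7 CPM, the highest level of any other named type. Among the others, Cxcl16 was past 2-fold lower in keratinocyte-like cells (30 and 31 UMIs, log2 ratio -1.11, -1.88 to -0.33) and higher in chondrocyte-like cells (12 and 52 UMIs, log2 ratio 1.13, 0.21 to 2.17), both named after their values were seen. Macrophage-like cells had a Cxcl16 UMI in 76.7% of BSA cells and 83.5% of FGF8 cells at median depths of 17004 and 14462 UMIs, and erythroid-like cells in 0.329% of FGF8 cells.

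Cxcl10 was highest in neutrophil-like and Ms4a4c monocyte or dendritic-like cells of BSA, whose intervals overlapped, and in blood endothelial-like cells of FGF8. It was more than 2-fold lower in FGF8 in 6 named types with at least 100 UMIs. In the Ms4a4c cluster it was 233 CPM in BSA and 82.3 CPM in FGF8 (log2 ratio -1.50, -1.69 to -1.31) and was detected in 23.2% of BSA cells and 13.4% of FGF8 cells. In macrophage-like cells it was 73.7 CPM in BSA and 20.5 CPM in FGF8 (log2 ratio -1.84, -2.28 to -1.42), and in Schwann-like cells 109 CPM in BSA and 30.3 CPM in FGF8 (log2 ratio -1.85, -2.21 to -1.50). Chondrocyte-like cells had 90.7 and 41.2 CPM (log2 ratio -1.14, -1.49 to -0.79). The 2-fold difference was not kept in Schwann-like cells after thinning to 2000 UMIs (-0.68) or with the stricter cell filter (-0.73), nor in chondrocyte-like cells with that filter (-0.82). The richest cell of each library held 38.8% and 37.1% of the UMIs in macrophage-like, 31.3% and 25.5% in Schwann-like and 24.8% and 45.5% in chondrocyte-like cells. In the Ms4a4c cluster, markers of several types were also lower in FGF8: monocyte or dendritic markers summed to 3373 CPM in BSA and 1802 CPM in FGF8, macrophage markers to 3803 CPM in BSA and 2799.5 CPM in FGF8 and neutrophil markers to 619 CPM in BSA and 212 CPM in FGF8. Erythroid markers there were higher, at 240.2 CPM in BSA and 2776 CPM in FGF8, and fibroblast markers were 727 CPM in BSA and 938 CPM in FGF8. In chondrocyte-like cells erythroid markers summed to 12549 CPM in BSA and 2317 CPM in FGF8 and fibroblast markers to 8774 CPM in BSA and 4167 CPM in FGF8, in erythroid-like cells neutrophil markers to 326 CPM in BSA and 51.03 CPM in FGF8 and in neutrophil-like cells macrophage markers to 724 CPM in BSA and 356 CPM in FGF8. The part of these markers in the Cxcl10 values, and of those of the Ms4a4c cluster in the interferon-response values given below, was not tested. Single cells weighed most in the remaining 2 types: neutrophil-like cells had 120 and 28 UMIs (log2 ratio -3.53, -4.18 to -2.92), 61.7% of the BSA UMIs in 1 cell, and erythroid-like cells had 162 and 62 UMIs (log2 ratio -3.13, -3.58 to -2.70), 49.4% of the BSA and 87.1% of the FGF8 UMIs in 1 cell. Without the richest cell of each library these were -2.44 and -5.11, and with cells of under 5000 UMIs left out and the rest thinned to that depth the neutrophil-like value was -1.11. The shares of all genes past 2-fold lower were 5.82% in the Ms4a4c cluster, 2.5% in macrophage-like, 2.81% in Schwann-like, 5.74% in chondrocyte-like, 6.31% in neutrophil-like and 17.8% in erythroid-like cells. Blood endothelial-like cells went the other way, with 32.2 CPM in BSA and 137 CPM in FGF8 of Cxcl10 (log2 ratio 2.08, 1.56 to 2.65) and 7.81 CPM in BSA and 66.4 CPM in FGF8 of Cxcl9 (log2 ratio 3.09, 2.07 to 4.33). There few cells decided the values: 1 FGF8 cell held 55.5% of the Cxcl10 UMIs and 1 held 88.3% of the Cxcl9 UMIs. With the cells of highest doublet score removed, the Cxcl9 log2 ratio was 0.09 and the Cxcl10 value 1.01. Pericyte or smooth muscle-like cells had 60.1 and 77.5 CPM of Cxcl10 (log2 ratio 0.37, 0.09 to 0.65) and 21.1 and 33.8 CPM of Cxcl9 (log2 ratio 0.68, 0.22 to 1.15), 56.7% and 55.0% of the latter in 1 cell of each library. After thinning to 2000 UMIs the direction of this Cxcl9 value turned (-0.53). Low-UMI fibroblast-like cells had 17.0 and 27.3 CPM of Cxcl10 (log2 ratio 0.69, 0.05 to 1.36) and the Flt3 cluster 111 and 64.4 CPM (log2 ratio -0.78, -1.30 to -0.27), 83.3% and 69.0% of the last in 1 cell of each library. The direction in the Flt3 cluster turned with cells weighted equally (0.14), after thinning to 2000 UMIs (0.31) and without the richest cell (0.089). In the Ms4a4c cluster all 19 genes with at least 10 UMIs of a 20-gene interferon-response list were below 0, with a median log2 ratio of -1.08. The median was -0.66 in macrophage-like and -1.18 in neutrophil-like cells, beside -0.01, 0.12 and 0.10 over all genes of the 3 types.

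**Figure D5:**
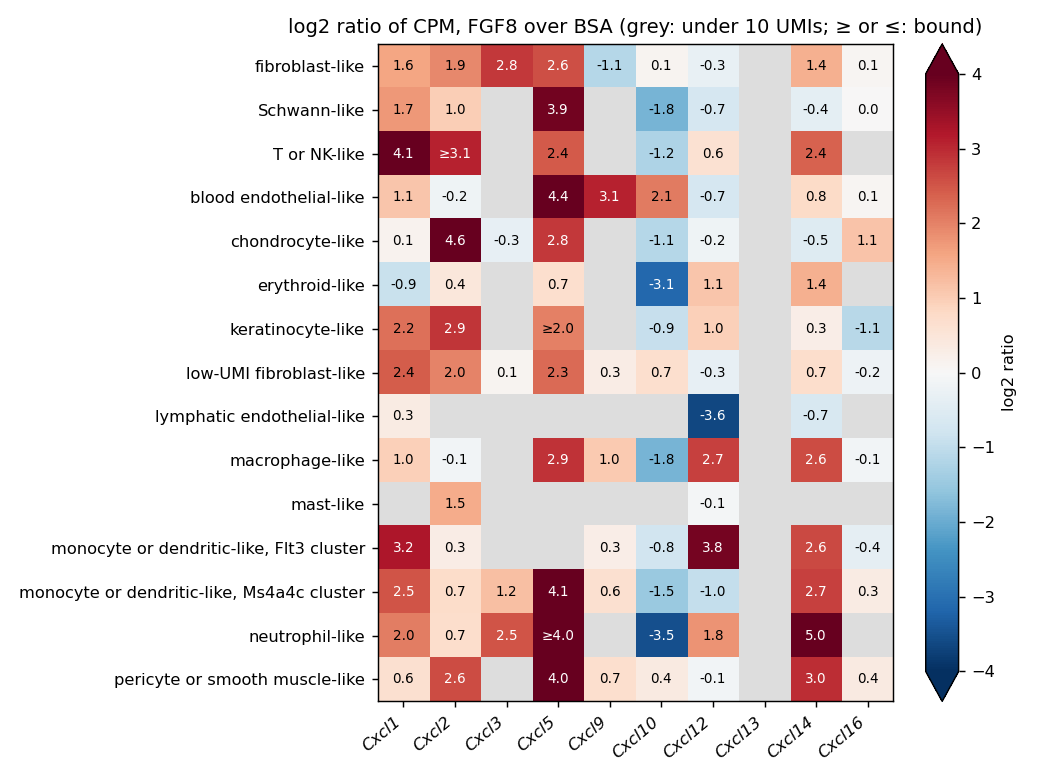
Log2 ratio of CPM, FGF8 over BSA, for each Cxcl transcript (columns) in each named cell type (rows); red is higher in FGF8, blue lower, grey under 10 UMIs over both libraries, and a ≥ or ≤ sign marks a bound where 1 library had 0 UMIs. The Cxcl1, Cxcl2, Cxcl5 and Cxcl14 columns are mostly red, the Cxcl10 column mostly blue, and the Cxcl16 column pale except in keratinocyte-like (blue) and chondrocyte-like cells (red).

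Outside the fibroblast-like cells, 41 of 95 pairs of a member and a named type with at least 10 UMIs were past 2-fold higher in FGF8 and 9 past 2-fold lower, beside 9.89% and 5.63% of all such pairs of a gene and a type. Cxcl1, Cxcl2, Cxcl5 and Cxcl14 accounted for most of the pairs that were higher, several of them at low levels. In macrophage-like cells Cxcl5 was 3.18 CPM in BSA and 23.7 CPM in FGF8 (log2 ratio 2.90, 1.72 to 4.39), Cxcl14 5.83 and 35.5 CPM (log2 ratio 2.60, 1.71 to 3.64) and Cxcl12 3.71 and 24.9 CPM (log2 ratio 2.75, 1.64 to 4.10). Fibroblast markers moved with them: all 9 were detected in macrophage-like cells of both libraries and summed to 549 CPM in BSA and 2818 CPM in FGF8, with Col3a1 most abundant in FGF8 at 822 CPM and Col1a1 in BSA at 187 CPM. In neutrophil-like cells Cxcl5 was at 0 UMIs in BSA and 96.3 CPM in FGF8, at least 16.3-fold higher when BSA is set to the floor of 3 UMIs for the cell type, and Cxcl14 was 1.96 and 62.0 CPM from 1 and 85 UMIs (log2 ratio 4.98, 2.46 to 10.30). The 9 fibroblast markers, all detected, summed to 1626 CPM in BSA and 3404 CPM in FGF8 there. Their part in these results was not tested. In the Ms4a4c cluster Cxcl14 was 3.28 and 21.8 CPM (log2 ratio 2.73, 1.70 to 3.98) and Cxcl5 0.821 and 14.0 CPM (log2 ratio 4.09, 2.18 to 7.17), beside fibroblast markers at 727 CPM in BSA and 938 CPM in FGF8. After thinning, a Cxcl14 UMI was found in 4.00% of macrophage-like and 3.12% of Ms4a4c-cluster cells of FGF8, beside 2.75% of erythroid-like cells, with overlapping intervals. In neutrophil-like cells of FGF8 the thinned shares were 10.4% for Cxcl14 and 14.5% for Cxcl5, above the 2.75% for Cxcl5 of erythroid-like cells. The 2 types differed in other ways. Neutrophil-like cells had a median of only 2384 UMIs before thinning, fewer than the erythroid-like cells. Fibroblast markers summed to 3404 CPM in neutrophil-like and 1218 CPM in erythroid-like cells of FGF8. Thinning equalized total UMIs only, and the part of these markers in the shares was not tested.

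Several other types also had more ELR transcript in FGF8. In erythroid-like cells Cxcl1 was 38.3 CPM in BSA and 20.6 CPM in FGF8 (log2 ratio -0.89), but 1 cell held 82.4% of the BSA UMIs. The direction there turned in 2 of 9 alternatives, with values up to 1.37. Low-UMI fibroblast-like cells, like the deeper ones, had more Cxcl2 (38.2 and 151 CPM, log2 ratio 1.99, 1.60 to 2.39). The 8 neutrophil markers in them summed to 232 CPM in BSA and 668 CPM in FGF8 (Ly6g at 0 in both libraries, S100a9 most abundant), and their part in the Cxcl2 value was not tested. Cxcl1 was 12.3 and 71.2 CPM in the Ms4a4c cluster (log2 ratio 2.53, 1.99 to 3.12), where 1 FGF8 cell held 60.1% of the UMIs, and 33.4 and 138 CPM in neutrophil-like cells (log2 ratio 2.05, 1.33 to 2.86). It was 55.8 and 301 CPM in low-UMI fibroblast-like (log2 ratio 2.43, 2.12 to 2.76), 8.54 and 28.4 CPM in Schwann-like (log2 ratio 1.73, 0.99 to 2.55), 12.7 and 58.9 CPM in keratinocyte-like (log2 ratio 2.21, 1.36 to 3.21) and 75.1 and 161 CPM in blood endothelial-like cells (log2 ratio 1.10, 0.73 to 1.48). The keratinocyte-like value was 0.31 with each cell weighted equally, and the blood endothelial-like value 0.30 with the cells of highest doublet score removed. In keratinocyte-like cells neutrophil markers summed to 22.2 CPM in BSA and 235 CPM in FGF8 (2 and 5 of 8 detected) and macrophage markers to 15.9 CPM in BSA and 146 CPM in FGF8 (5 and 8 of 8). Fibroblast markers there summed to 1339 CPM in BSA and 2101 CPM in FGF8, and erythroid markers to 313 CPM in BSA and 10492 CPM in FGF8. In blood endothelial-like cells neutrophil markers summed to 3.90 CPM in BSA and 180.1 CPM in FGF8 (2 and 3 of 8 detected). In neutrophil-like cells fibroblast markers, as given above, summed to 1626 CPM in BSA and 3404 CPM in FGF8. The part of these markers in the Cxcl1 values was not tested. Cxcl2 was 6.33 and 38.9 CPM in pericyte or smooth muscle-like cells (log2 ratio 2.62, 1.91 to 3.42), where neutrophil markers summed to 36.9 CPM in BSA and 172 CPM in FGF8 (Ly6g and Ltf at 0 in both libraries) and their part was not tested. It was 3.65 and 88.9 CPM in chondrocyte-like cells (log2 ratio 4.61, 3.47 to 6.06). In the same chondrocyte-like cells the 8 neutrophil markers summed to 3.04 CPM in BSA and 159 CPM in FGF8, with 2 detected in BSA and 5 in FGF8 and S100a9 most abundant in FGF8, and the 8 macrophage markers to 9.13 CPM in BSA and 178 CPM in FGF8, with 4 and 8 detected. Their part in the Cxcl2 value was not tested. Cxcl2 in macrophage-like cells was 48.8 and 45.1 CPM (log2 ratio -0.11, -0.49 to 0.28). Cxcl14 in pericyte or smooth muscle-like cells was 8.08 and 62.5 CPM (log2 ratio 2.95, 2.33 to 3.64), with 50% of the FGF8 UMIs in 2 cells, while fibroblast markers there were 5896 CPM in BSA and 6095 CPM in FGF8.

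Receptors are described by the cell type with their highest level. Cxcr2, the neutrophil receptor of the ELR chemokines, was highest in neutrophil-like cells, 534 CPM in BSA and 683 CPM in FGF8 (log2 ratio 0.36, 0.16 to 0.56), and was detected in 69.5% of BSA cells and 71.8% of FGF8 cells. These were also the cells with the highest level of its ligand Cxcl2. Cxcr6, the partner of Cxcl16, was highest in T or NK-like cells (463 CPM in BSA and 503 CPM in FGF8, log2 ratio 0.12, -0.15 to 0.40). Cxcr3, the receptor of Cxcl9 and Cxcl10, was highest in the same cells, from 37 and 25 UMIs (95.1 and 43.8 CPM, log2 ratio -1.12, -1.91 to -0.35). Cxcr4, the receptor of Cxcl12, was highest in neutrophil-like cells, 455 CPM in BSA and 269 CPM in FGF8 (log2 ratio -0.76), and was detected in 55.8% of BSA cells and 41.6% of FGF8 cells. In fibroblast-like cells Cxcr4 was 4.82 and 1.95 CPM (log2 ratio -1.30, -1.64 to -0.97) and Cxcr6 1.33 and 3.44 CPM (log2 ratio 1.37, 0.91 to 1.86). These were the only ones past 2-fold, in opposite directions, of the 4 receptors (of 6) with at least 10 UMIs in fibroblast-like cells, beside 6.45% higher and 5.31% lower of all genes. Cxcr5, the receptor of Cxcl13, was highest in neutrophil-like cells at 21.6 and 35.0 CPM from 11 and 48 UMIs, with an interval that spans 0 (log2 ratio 0.70, -0.27 to 1.79).

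Scavenging receptors, which take up chemokines without a G protein signal, differed in the cells that carried them. Ackr3, which clears Cxcl12, was 43.9 CPM in BSA and 67.7 CPM in FGF8 in fibroblast-like cells (log2 ratio 0.63, 0.54 to 0.71) and was detected in 28.9% of BSA cells and 42.5% of FGF8 cells. Its highest level was in lymphatic endothelial-like cells, from 71 and 47 UMIs (93.9 and 206 CPM), with 12.7% and 51.1% of the UMIs in 1 cell of each library. Ackr1, the Duffy receptor of venous endothelium, was highest in blood endothelial-like cells (51.7 and 88.8 CPM, 0.78 (0.33 to 1.25), with 62.3% and 28.1% of the UMIs in 1 cell of each library), Ackr2 in lymphatic endothelial-like cells (26 and 12 UMIs) and Gpr182, among types with at least 10 UMIs, in blood endothelial-like cells (2 and 9 UMIs). Ackr4 was 12.9 and 7.28 CPM in fibroblast-like cells (log2 ratio -0.82, -1.01 to -0.63). Ccrl2 was highest in neutrophil-like cells, 3909 CPM in BSA and 1719.7 CPM in FGF8 (log2 ratio -1.18, -1.27 to -1.10), and 2.60 and 2.20 CPM in fibroblast-like cells. None of the 5 scavenging receptors (of 6) with at least 10 UMIs in fibroblast-like cells was past 2-fold there.

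Of 5 further CXC ligands, 4 reached 10 UMIs in the fibroblast-like class, 1 past 2-fold higher and 2 past 2-fold lower, beside 6.45% and 5.31% of all genes. The one that was higher, Ppbp, had 8 and 62 UMIs (log2 ratio 1.98, 0.91 to 3.25), and Cxcl11, another Cxcr3 ligand, had 81 and 9 UMIs (log2 ratio -4.15, -5.33 to -3.15). Both were named after their values were seen. Pf4, the platelet and macrophage chemokine, was 2.98 and 4.92 CPM (log2 ratio 0.73, 0.40 to 1.06) there and 6506 and 6139 CPM in macrophage-like cells. Cxcl15, the other one past 2-fold lower, was 14.9 and 5.39 CPM (log2 ratio -1.47, -1.67 to -1.27). Of 9 proteases that cut Cxcl proteins, 8 had at least 10 UMIs, 1 past 2-fold higher and 1 past 2-fold lower, beside the same shares of all genes, with a median log2 ratio of -0.32. Mmp9, a gelatinase that processes ELR chemokines, was 0.780 and 5.43 CPM (log2 ratio 2.80, 2.24 to 3.42), detected in 1.19% of BSA cells and 3.72% of FGF8 cells. Dpp4, the dipeptidyl peptidase that inactivates Cxcl12, was 21.5 and 6.37 CPM (log2 ratio -1.75, -1.93 to -1.58), and Mmp2, which also cuts Cxcl12, was 470.3 and 282 CPM (log2 ratio -0.74, -0.77 to -0.71). The aminopeptidase Anpep was 43.1 and 26.8 CPM (log2 ratio -0.69, -0.79 to -0.59), and Adam10 and Adam17, which shed Cxcl16, were 65.4 and 60.4 CPM (log2 ratio -0.11, -0.19 to -0.04) and 33.0 and 37.2 CPM (log2 ratio 0.17, 0.07 to 0.27).

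Genes that respond to NF-kB were mostly higher in FGF8 fibroblast-like cells. Of 23 on the list, all with at least 10 UMIs, 21 were above 0, 9 past 2-fold higher and 1 past 2-fold lower, with a median log2 ratio of 0.91, beside 6.45% and 5.31% of all genes. The one that was lower, Csf2, had 8 and 7 UMIs and was named after its value was seen. Csf3, the granulocyte growth factor, had 1 and 114 UMIs (log2 ratio 5.86, 3.35 to 11.17). The chemokine Ccl20 was 0.867 and 4.24 CPM (log2 ratio 2.29, 1.75 to 2.89) and Lcn2, an antibacterial lipocalin, 7.16 and 26.6 CPM (log2 ratio 1.89, 1.70 to 2.09). The list was not uniform. At its low end, Il1b was 6.27 and 8.64 CPM (log2 ratio 0.46, 0.24 to 0.69), and the adhesion molecules Icam1 and Vcam1 were 58.0 and 77.7 CPM (log2 ratio 0.42, 0.35 to 0.50) and 117 and 109 CPM (log2 ratio -0.09, -0.15 to -0.04). Neutrophil markers also differed in these cells, as given above (8.81 and 33.1 CPM), and neutrophils make Lcn2, Il1b and Mmp9. Their part in those values was not tested. Of 20 interferon-response genes, 19 had at least 10 UMIs, of which 6 were above 0, 13 below, none past 2-fold higher and 2 past 2-fold lower, with a median log2 ratio of -0.34. With cells thinned to 5000 UMIs this median was 0.018, so that its sign was not kept. Irf1, a transcription factor that NF-kB also induces, was 77.5 and 123 CPM (log2 ratio 0.67, 0.60 to 0.73). Psmb8 and Igtp were 40.5 and 47.0 CPM (log2 ratio 0.21, 0.12 to 0.31) and 5.40 and 5.70 CPM (log2 ratio 0.08, -0.18 to 0.34). These 3 stood at the high end, and the classical antiviral genes at the low end. Isg15, Ifit3 and Ifit1, targets of type I interferon, were 124 and 73.6 CPM (log2 ratio -0.75, -0.81 to -0.69), 14.6 and 6.95 CPM (log2 ratio -1.07, -1.26 to -0.89) and 16.9 and 7.26 CPM (log2 ratio -1.22, -1.40 to -1.05). The lists were chosen with earlier results of these data known, so their direction is a description.

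The genes most like each member in their levels over the 15 named types of both libraries (30 points, Pearson's r of log2(CPM + 1), among genes with at least 100 UMIs) are given as a description, since the points share libraries and depth. For Cxcl1 they were Sobp (0.83), Snai1 (0.82) and Inhba (0.81). For Cxcl2, high in neutrophil-like cells, they were Mmp9 (0.84), Csf3r (0.84) and Nlrp3 (0.84). Cxcl3 was followed by Chil1 (0.82), Prss50 (0.78) and Ptgs2 (0.77) and Cxcl5 by Crabp1 (0.86), Thbs4 (0.80) and Ccbe1 (0.80). For Cxcl12 they were Gulp1 (0.89), Dennd2b (0.88) and Plpp3 (0.88) and for Cxcl14 Crabp2 (0.86), Fbln1 (0.85) and Chl1 (0.84). Cxcl16 paired with Ifi30 (0.90), Gm35154 (0.88) and Dpep2 (0.87). Cxcl9 and Cxcl10 had lower values, with Rasa4 (0.75), Gpr4 (0.75) and Gm38875 (0.74) for Cxcl9 and Trmt5 (0.61), Gm44649 (0.60) and Gm15563 (0.59) for Cxcl10. Cxcl13 had too few UMIs for a pattern. Within single fibroblast-like cells thinned to 5000 UMIs, Cxcl2 was found in 22.01% of BSA cells with and 1.53% without a Cxcl1 UMI and in 36.0% of FGF8 cells with and 5.09% without a Cxcl1 UMI. Cxcl12 was found in 48.5% of BSA cells with and 48.5% without a Cxcl1 UMI and in 44.1% of FGF8 cells with and 46.3% without a Cxcl1 UMI, which is given as a description, since cells of 1 library are not replicates.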

How the data were processed

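Single-cell 3′ RNA libraries were made from pooled digit tissue dissociated with Liberase for 4 h. The deposited values are UMI counts per gene and cell barcode, not normalized, which the authors made with Cell Ranger 9.0.0 (GRCm39; the submitters' notes also name mm10). Each group is 1 library, so no test, standard error or p-value was computed, and the number of cells does not stand for replicates.

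Following the study's methods, barcodes with over 200 and under 7500 genes and under 15% mitochondrial UMIs were kept, normalized with SCTransform (sctransform 0.4.2), integrated by CCA and clustered in Seurat 5.3.0 (30 components, resolution 0.05, seed 42). Fibroblast-like cells were re-clustered at resolution 0.2 and all others at 0.5. The 3000 variable features were used without chemokine ligands, their receptors and genes of the X and Y chromosomes. Clusters were named from marker lists when at least 3 markers of a type were detected in 10% or more of the cells and, for re-clustered cells, at least 1 marker was among the 10 leading genes by fold; fibroblast-like subclusters are given by number. This scoring was set after the clusters were seen. Scrublet (scanpy 1.11.5) called 0 doublets, so none was removed, and removal of the highest scores was tried instead.

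Within each library the UMIs of a cell type were added up and scaled to 1000000 (CPM). The tools were scipy 1.17.1, pandas 2.3.3, numpy 2.4.6 and matplotlib 3.10.9 under Python 3.11.15, and R 4.3.3 for clustering. Log2 ratios carry the exact conditional 95% interval for 2 Poisson counts and shares of cells the exact Clopper-Pearson interval, and a gene entered a comparison with at least 10 UMIs. The interval was tested on simulated data. Named were all members in fibroblast-like cells, members with at least 100 UMIs elsewhere, each receptor in the type with its highest CPM, the 3 genes most correlated with a member, and from each other list the 3 genes at either end of the log2 ratios, 100 UMIs being the minimum. Further genes are named where the text says so, and pairs of members and types below 100 UMIs are given where they stand beside other markers. The members and lists were chosen with earlier results of these data known. The alternatives were stricter cell filters, other features, no integration, resolution 0.2, equal weights, thinning to 2000 or 5000 UMIs, median centring, cells of 1 sex, doublet removal and other UMI minima. Removal of the richest cell and BSA weights for the subclusters were added after seeing the data.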

Additional observations from a re-analysis of the deposited data

Results flagged for a closer look

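Cxcl9 and Cxcl10 were singled out because cell types differed in opposite directions between the BSA and FGF8 libraries. The Cxcl9 log2 ratio was 3.09 in blood endothelial-like cells and -1.14 in fibroblast-like cells. The endothelial value was 0.09 with the cells of highest doublet score removed, and the fibroblast-like value was 0.09 in female-called cells. The Cxcl10 log2 ratio was 2.08 in blood endothelial-like cells, against -3.53 in neutrophil-like, -3.13 in erythroid-like, -1.85 in Schwann-like, -1.84 in macrophage-like and -1.14 in chondrocyte-like cells and -1.50 in the Ms4a4c monocyte or dendritic-like cluster. Within fibroblast-like cells Cxcl10 was -0.44 in the female-called and 0.31 in the male-called ones. In BSA 1 cell held 24.9% of the female-called and 1 held 37.1% of the male-called UMIs. With 1 library per group, these differences were not tested.

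Barcodes outside the cell filter (451 in BSA and 534 in FGF8), which no comparison used, also carried the transcripts. Those singled out, because their interval lay above a 2-fold difference, had log2 ratios of 1.70 for Cxcl1 (131 and 426 CPM), 2.28 for Cxcl2 (31.7 and 154 CPM), 2.78 for Cxcl3 (1.50 and 10.2 CPM), 1.22 for Cxcl5 (146 and 341 CPM) and 2.36 for Cxcl9 (1.42 and 7.29 CPM). Cxcl14 was 170.5 and 345 CPM (1.02) and Cxcl10 24.6 and 47.5 CPM (0.95), while Cxcl12 was 159 and 153 CPM (-0.05) and Cxcl16 9.05 and 8.40 CPM (-0.11), with intervals that span 0, and Cxcl13 had no UMI. These barcodes were not assigned to cell types, so each value is over a mixture of types. The Cxcl9 value of this mixture is opposite in sign to that of the fibroblast-like cells alone, and the difference was not tested.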

How the results depend on the processing

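In fibroblast-like cells, 5 members were past 2-fold higher under every alternative except male-called cells, where 4 were (Cxcl14 at 0.46). The 1 member past 2-fold lower, Cxcl9, became 0 members in female-called cells, where its sign turned (0.094 against -1.14). There 1 FGF8 cell held 75.9% of the Cxcl9 UMIs, so the turn rested largely on that cell. The median of the interferon-response list, -0.34, was -0.72 for female-called and -0.63 for male-called cells alone, and over all alternatives it ran from -0.72 to 0.018. That of the NF-kB list ran from 0.71 to 1.20. The 41 pairs past 2-fold higher in other cell types became 25 when cells were thinned to 2000 UMIs, where fewer genes reach 10 UMIs and shallower cells are left out. The count of subcluster pairs past 2-fold lower went from 2 to 1 with cells weighted equally, with thinning to 2000 UMIs, with a minimum of 50 UMIs and without the richest cell. Over 558 single-member comparisons with an alternative, 390 stayed within the counting interval. The sign changed in 27, over 14 of 56 pairs of a member and a type. Of these pairs 1 was past 2-fold (Cxcl9 in fibroblast-like cells, above), and Cxcl14 in Schwann-like cells changed most often (5 of 9 alternatives, -0.41 to 0.90). Of 29 pairs past 2-fold with at least 100 UMIs or in fibroblast-like cells, 20 were past 2-fold under every alternative run for them. Besides the exceptions given with the results, Cxcl14 in macrophage-like cells was 0.46 after thinning to 2000 UMIs. Cxcl2 in neutrophil-like cells was 2.04 after thinning to 5000 UMIs, which leaves out most of them. The causes were not tested. No paired analysis was possible because each group is 1 library, and no replicate could be left out.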
